A study of Homo sapiens with 12 samples.

Results

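The alpha-arrestins ARRDC1, ARRDC2, ARRDC3 and ARRDC4 and their relative TXNIP (thioredoxin-interacting protein) were examined in Huh7 cells, a human hepatocellular carcinoma line. They were taken from the count table by gene symbol, 5 of its genes, which occupied 6 of 63677 rows. TXNIP had 2 rows, ENSG00000117289 with all of its counts and ENSG00000265972 with 0 counts in every sample. After removal of genes with low counts, 4 of the 5 symbols were among 17092 genes tested, and ARRDC4 was not. The set was taken to be selected on the fold changes of GO-treated against untreated cells, where ARRDC2 had rank 2 among all genes. The selecting values were not recorded, and the p-values given for members rest on that assumption. Member values in every comparison that shares samples with that one are therefore a description without a p-value. The 12 RNA-seq samples formed 4 groups, each of 3. They were untreated cells in medium only, cells given graphene oxide (GO) at 400 µg/mL, cells given GO carrying the ginsenoside Rg3 (GO-Rg3) at 400 µg/mL, and cells given GO carrying both Rg3 and the anthracycline doxorubicin (GO-Rg3-DOX) at 100 µg/mL. All treatments lasted 6 h. The labels number the samples of a group without saying whether they were separate cultures, so the spread between them may be technical, and cells given free doxorubicin were not analysed here.

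Alpha-arrestins are adaptor proteins of the arrestin fold that carry PPxY motifs. Through these motifs they bring NEDD4-family ubiquitin ligases to membrane proteins, which are then ubiquitinated and internalised or sorted. TXNIP also binds reduced thioredoxin and promotes removal of the glucose transporter SLC2A1 from the cell surface, and TXNIP and ARRDC4 are known as glucose-induced targets of MondoA (MLXIP) and ChREBP (MLXIPL), which bind carbohydrate response elements together with MLX.

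TXNIP lies at chr1:145438490-145442635 on the plus strand of GRCh37, the build to which the reads were mapped. ARRDC1 lies at chr9:140500137-140509812 and ARRDC2 at chr19:18111941-18124911, both on the plus strand. ARRDC3 lies on the minus strand at chr5:90664448-90679134, and ARRDC4 on the plus strand at chr15:98503933-98517063. The RefSeq promoter sequences, from GRCh38.p14, covered all 5 genes with 8 transcript starts, and each was found unchanged in GRCh37, whose coordinates are given. The 250 bases before the outermost starts of TXNIP, ARRDC2 and ARRDC3, the members highest after GO, and of the undetected ARRDC4 are printed to show which regulatory words they do and do not share. Capitals mark matches on either strand to a paired E-box of the carbohydrate response element type (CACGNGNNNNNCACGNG), to CACGTG, to the forkhead (FOXO) word GTAAACA, to CCAAT or to the GC box GGGCGG. Overlapping matches were merged.
TXNIP, chr1:145438240-145438489, plus strand: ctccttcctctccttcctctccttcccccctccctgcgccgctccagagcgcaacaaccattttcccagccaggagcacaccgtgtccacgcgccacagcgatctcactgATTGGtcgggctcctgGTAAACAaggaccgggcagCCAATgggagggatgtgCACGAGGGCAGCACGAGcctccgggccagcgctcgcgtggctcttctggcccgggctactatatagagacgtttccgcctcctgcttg
ARRDC2, chr19:18111683-18111932, plus strand: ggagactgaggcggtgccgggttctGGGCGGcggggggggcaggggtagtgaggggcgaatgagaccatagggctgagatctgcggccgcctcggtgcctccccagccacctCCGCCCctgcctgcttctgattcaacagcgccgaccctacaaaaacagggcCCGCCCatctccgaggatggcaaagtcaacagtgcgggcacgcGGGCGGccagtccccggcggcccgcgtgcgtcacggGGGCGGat
ARRDC3, chr5:90679135-90679384, minus strand: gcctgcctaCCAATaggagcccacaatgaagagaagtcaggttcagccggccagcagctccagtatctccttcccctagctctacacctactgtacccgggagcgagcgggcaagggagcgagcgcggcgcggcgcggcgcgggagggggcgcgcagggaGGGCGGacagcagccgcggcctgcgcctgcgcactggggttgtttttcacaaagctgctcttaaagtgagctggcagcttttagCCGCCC
ARRDC4, chr15:98503683-98503932, plus strand: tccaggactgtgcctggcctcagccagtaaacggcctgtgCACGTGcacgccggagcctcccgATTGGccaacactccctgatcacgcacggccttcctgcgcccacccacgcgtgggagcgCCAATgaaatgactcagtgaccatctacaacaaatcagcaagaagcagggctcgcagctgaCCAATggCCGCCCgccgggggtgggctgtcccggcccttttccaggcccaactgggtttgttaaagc

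The paired E-box was found before the outer TXNIP start, 88 to 72 bases upstream, and in none of the other 7 windows. Of 35116 RefSeq promoter windows of the same length, 16 (0.0456%) held it. The forkhead word, held by 2.98% of all windows, began 124 bases before the same TXNIP start, between a pair of CCAAT boxes. It was also found, on the opposite strand, before an inner ARRDC3 start that lies 3220 bases inside the gene, where the capitals in the following 29 bases mark it.
ARRDC3, inner start, bases 40 to 12 before it: agcccggcactTGTTTACcacggcgcggc

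ARRDC4 held 1 match to CACGTG, a word found in 6.34% of all windows, together with 3 CCAAT boxes. The ARRDC1 window held 10 GC boxes and the outer ARRDC2 window 5, while 42.6% of all windows held at least 1. CCAAT was present in 11240 of the 35116 windows. The window before the inner TXNIP start, 835 bases inside the gene, held none of these words. Counts were summed per gene and do not tell which start was used, and a match is a description of the sequence only.

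**Figure D1:**
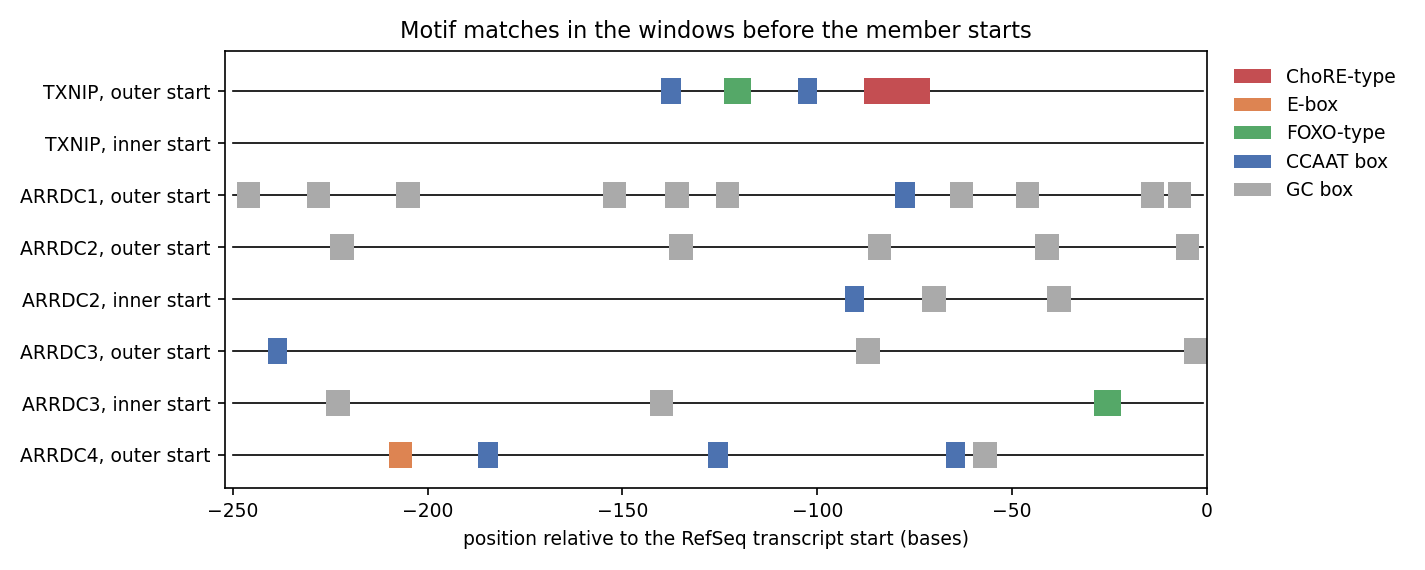
Positions of the motif matches in the 250 bases before each RefSeq transcript start of the 5 genes, with the distance to the start in bases on the x axis and 1 line per start. The paired E-box (ChoRE-type) appears only before the outer TXNIP start, and the ARRDC1 and ARRDC2 windows are marked mostly by GC boxes.

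Counts per sample totalled 27802871 to 38877420. Reads carry no molecular identifiers, so limits from counts cover counting error only. All 6 hepatocyte markers were detected in every group. Their sum was 20287 to 20487 CPM (counts scaled to a common library size) in untreated cells, 12044 to 14994 after GO, 15372 to 18841 with GO-Rg3 and 26249 to 31317 with GO-Rg3-DOX, so it moved with treatment without overlap between the groups, and its part in the members' levels was not tested. The single markers differed in direction. Mean CPM after GO was below untreated for AFP (5836 against 12287), the largest of them, ALB (2601 against 4139) and TTR (202.3 against 259.6). It was above untreated for APOB (2058 against 1593), SERPINA1 (2017 against 1588) and APOA1 (546.6 against 513.8). The leukocyte and endothelial markers summed to at most 0.247 CPM and 0.165 CPM. Mitochondrially encoded genes took 5.31% to 6.28% of counts in untreated cells and 6.89% to 7.42% after GO-Rg3. After GO the shares were 24.1%, 12.1% and 14.8%, and after GO-Rg3-DOX 19.4%, 13.9% and 12.8%. In bulk RNA, fewer cells of a kind and less RNA per cell cannot be told apart.

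TXNIP, the thioredoxin-binding member, was, with ARRDC3, the most expressed of them per length in untreated cells and was highest after GO. Its levels, as CPM scaled by the TMM method, were 20.2, 20.9 and 19.4 in the untreated samples and 64.6, 71.7 and 68.9 in the GO samples. They were 16.6, 22.2 and 20.7 with GO-Rg3 and 9.48, 12.5 and 12.5 with GO-Rg3-DOX. The GO samples lay above all others and the GO-Rg3-DOX samples below all others, whereas the GO-Rg3 and untreated samples overlapped. The means were 68.4 ± 3.57 CPM (SD, n = 3) after GO, 20.2 ± 0.761 in untreated cells, 19.9 ± 2.89 with GO-Rg3 and 11.5 ± 1.76 with GO-Rg3-DOX.

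ARRDC3, an adaptor for the beta-adrenergic receptor, integrin beta-4 and the insulin receptor, likewise had its highest group in GO and its lowest in GO-Rg3-DOX. The untreated samples measured 27.1, 25.2 and 25.5 CPM, and the GO samples 44.6, 68.4 and 69.1 CPM. The samples measured 24.5, 29.6 and 26.5 CPM with GO-Rg3 and 12.6, 16.9 and 17.3 CPM with GO-Rg3-DOX. The GO group was again above all others and GO-Rg3-DOX below, with untreated and GO-Rg3 overlapping. GO replicate 1, which gave the 44.6 CPM, also had the highest mitochondrial share, 24.1%, and GO-Rg3-DOX replicate 1, with 12.6 CPM, the second highest, 19.4%. The part of this share in the levels was not tested beyond leaving samples or mitochondrial genes out. In the paper, the GO library listed first had the lowest RNA integrity of the series. Its list gives no replicate numbers, but that library and GO replicate 1 each had the smallest depth of the GO group. The part of RNA integrity in the levels was not tested. Without GO replicate 1 the log2 difference of GO and untreated cells for ARRDC3 was 1.41.

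ARRDC2, a less studied adaptor of the family, was barely detected in untreated cells. It had 15, 8 and 7 counts there, 0.397, 0.256 and 0.165 CPM, and 178, 236 and 221 counts after GO, 6.97, 6.31 and 6.25 CPM. After GO-Rg3 it had 27, 11 and 10 counts, 0.730, 0.354 and 0.257 CPM, and after GO-Rg3-DOX 37, 33 and 44 counts, 1.52, 1.19 and 1.68 CPM. The order was GO, GO-Rg3-DOX, then GO-Rg3 and untreated, whose samples overlapped. The minimum of 10 counts was met in every treated sample and in 1 untreated sample, so the gene entered the test through the treated groups.

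ARRDC1, which recruits the budding machinery that releases microvesicles from the plasma membrane, differed from the others in being highest after GO-Rg3-DOX. The untreated samples measured 11.1, 9.72 and 10.2 CPM, and the GO samples 14.6, 11.3 and 13.1 CPM. After GO-Rg3 the levels were 14.2, 7.81 and 11.9 CPM, and after GO-Rg3-DOX 19.0, 22.6 and 21.5 CPM. The GO-Rg3-DOX samples lay above all others, GO-Rg3 overlapped both GO and untreated cells, and the GO and untreated samples were separated only narrowly. ARRDC1 shares exonic sequence with the antisense gene ARRDC1-AS1 and with a longer transcript on its own strand. Whether the counting used the strand is not stated in the sources used here, so its values are uncertain to that extent. ARRDC1-AS1, listed as C9orf37 in the count table, measured 8.32 ± 0.229 CPM untreated and 6.69 ± 0.479 CPM with GO-Rg3-DOX (SD, n = 3). ARRDC2 and ARRDC3 also overlap antisense transcripts, for which no row was used here.

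ARRDC4, the other glucose-responsive member, had 1 count in 1 GO sample and 0 counts in the remaining 11. With 3 counts as the limit that a count of 0 allows, those 11 samples place it under 0.0707 to 0.124 CPM, depending on the library. The GO sample with 1 count measured 0.0283 CPM, and that limit does not apply to it. ARRDC5, an arrestin-domain gene outside the set, likewise had 1 count in 1 GO-Rg3-DOX sample and was not tested.

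**Figure D2:**
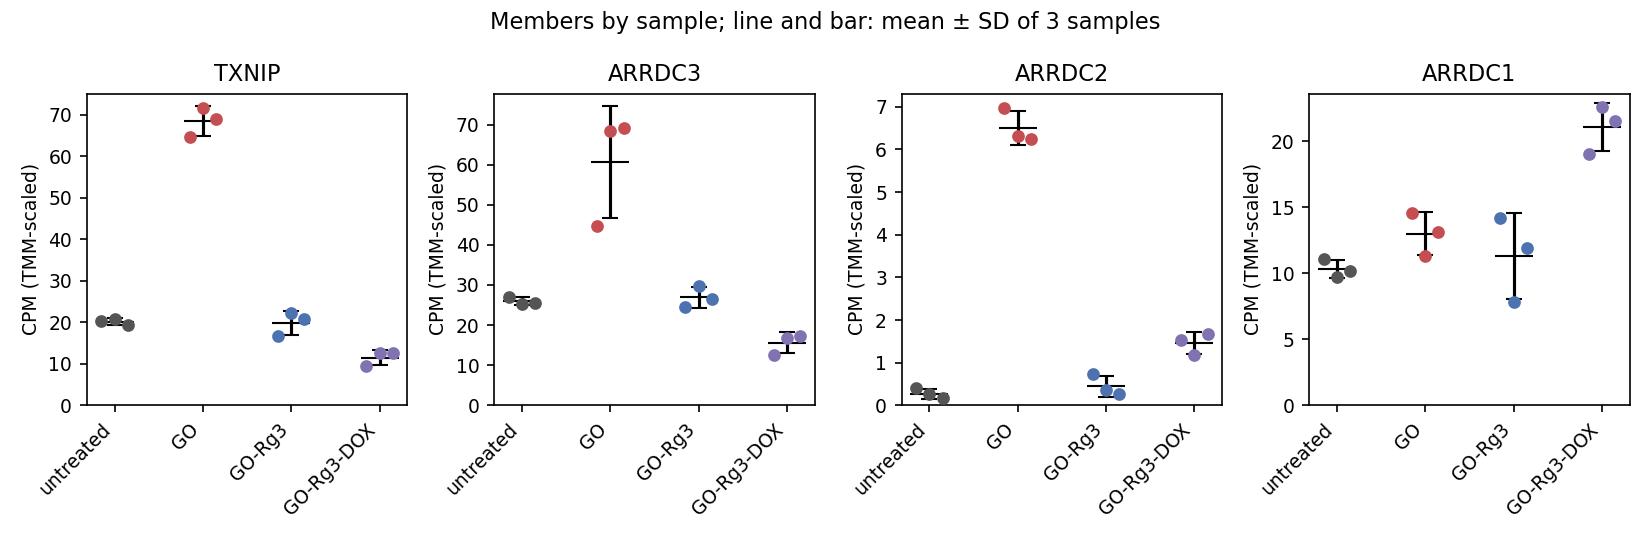
Levels of the 4 detected genes in each of the 12 samples (CPM after TMM scaling, linear axis from 0), with the mean and SD of 3 samples per group. TXNIP, ARRDC3 and ARRDC2 are highest after GO, and ARRDC1 is highest after GO-Rg3-DOX.

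Per kilobase of exonic sequence, the scale on which genes can be set side by side, untreated levels were 5.61 CPM per kb for TXNIP, 5.20 for ARRDC3, 2.72 for ARRDC1 and 0.0588 for ARRDC2. After GO they were 19.0, 12.2, 3.43 and 1.40 CPM per kb in the same order. After GO-Rg3-DOX ARRDC1 came first with 5.55 CPM per kb, followed by TXNIP with 3.20, ARRDC3 with 3.13 and ARRDC2 with 0.315. ARRDC1 stood below TXNIP and ARRDC3 in untreated and GO-treated cells and above both after GO-Rg3-DOX.

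The comparison of GO with untreated cells addresses how the bare carrier changed expression. The log2 fold change was 4.57 (SE 0.30) for ARRDC2, 23.8-fold, 1.76 (SE 0.13) for TXNIP, 3.39-fold, and 1.23 (SE 0.16) for ARRDC3, 2.34-fold. For ARRDC1 it was 0.33 (SE 0.17). A gene counted as called when its Benjamini-Hochberg adjusted p in edgeR's quasi-likelihood test was under 0.01 and its log2 fold change exceeded 1 in either direction. By that rule 3 members were called higher and 0 lower, where 3.84% of all genes tested were called higher and 2.62% lower. In 4 of the 4 members the groups did not overlap, as in 58.5% of all genes. The members' median log2 fold change was 1.496, beside 0.01 over all genes. Under the assumed selection, these counts follow from how the set was chosen. Over all genes 657 were called higher and 448 lower, and with scaling by library totals alone 476 higher and 695 lower. Across 16722 genes the log2 fold change rose with exonic GC content (Spearman's rho 0.43, across genes, which are not independent replicates). The exons of TXNIP hold 42.9% GC and those of ARRDC3 38.8%, against 62.0% for ARRDC2 and 63.2% for ARRDC1. With an offset for GC content the differences were 1.94 for TXNIP, 1.53 for ARRDC3, 4.21 for ARRDC2 and -0.07 for ARRDC1, so the sign of ARRDC1 turned.

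GO-Rg3 and GO were given at equal dose. Rg3 and the changes that conjugation makes to the flakes themselves, such as their size, cannot be told apart in their comparison. All of the 3 genes highest after GO were lower with Rg3. The log2 fold change was -3.85 (SE 0.27) for ARRDC2, -1.79 (SE 0.13) for TXNIP and -1.18 (SE 0.16) for ARRDC3, against -0.19 (SE 0.17) for ARRDC1. By the same rule 3 members were called lower and 0 higher, where 2.07% of all genes were called lower and 0.702% higher. Over all genes these were 353 lower and 120 higher, and with library totals alone 231 lower and 220 higher. The groups did not overlap in 3 members and in 39% of all genes. This comparison shares the GO samples with the one assumed to have selected the set.

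Against untreated cells, the GO-Rg3 levels lay close to the untreated ones for TXNIP and ARRDC3. The log2 fold change was -0.02 (SE 0.13) for TXNIP, 0.05 (SE 0.16) for ARRDC3, 0.14 (SE 0.17) for ARRDC1 and 0.73 (SE 0.41) for ARRDC2. No member was called, 0 higher and 0 lower, where 0.0117% of all genes were called higher and 0.0468% lower, and all 4 overlapped between the groups, whereas 25.8% of all genes did not. The ARRDC2 value rested on GO-Rg3 replicate 1, the sample with 27 counts, and was 0.16 without it.

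**Figure D3:**
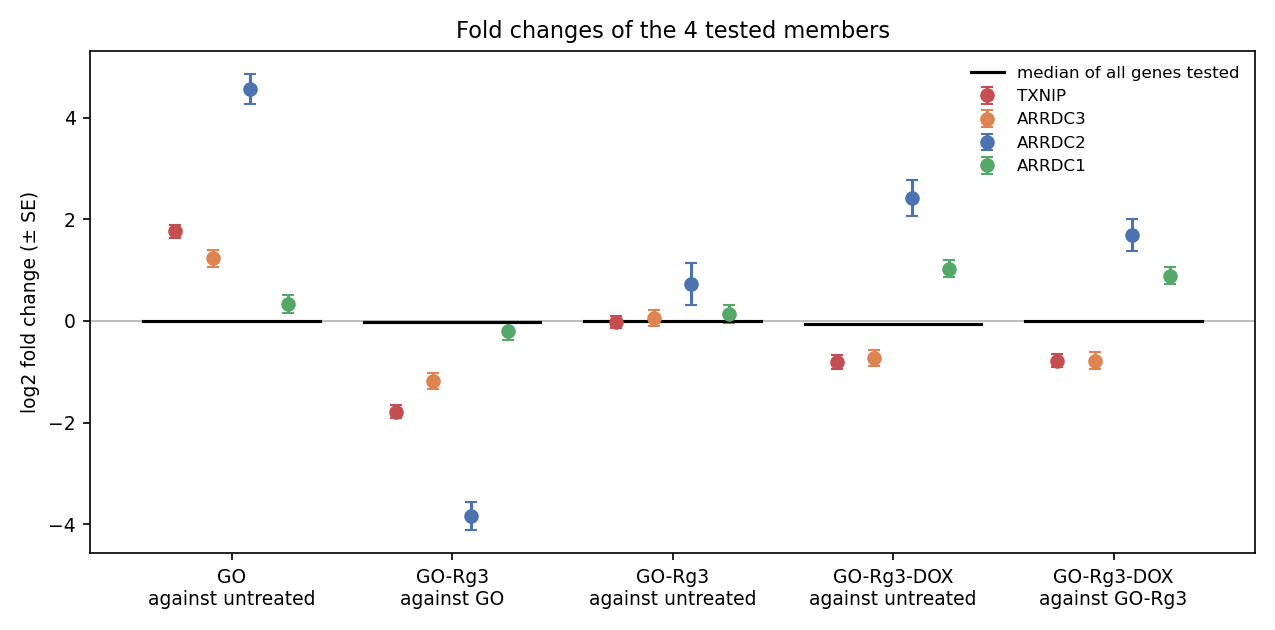
Log2 fold changes of the 4 tested genes in the 5 comparisons (points, ± SE from edgeR), with the median over all 17092 genes as a black line. TXNIP and ARRDC3 lie above the line for GO and below it for GO-Rg3-DOX, and ARRDC2 lies above it for both.

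After GO-Rg3-DOX the family split. Against untreated cells the log2 fold change was 2.42 (SE 0.35) for ARRDC2 and 1.03 (SE 0.17) for ARRDC1, but -0.81 (SE 0.13) for TXNIP and -0.73 (SE 0.16) for ARRDC3. Of the members 2 were called higher and 0 lower, where 12.6% of all genes were called higher and 18.2% lower. The groups did not overlap in 4 members and in 75.3% of all genes. The call of ARRDC1 sat at the fold limit, and it was lost without untreated replicate 2 or without GO-Rg3-DOX replicate 2, with 1 member then called. Scaling by library totals, which moved the all-gene median to -0.47, gave 0.62 for ARRDC1, -1.21 for TXNIP and -1.13 for ARRDC3. With it 3 members were called, ARRDC2 higher and TXNIP and ARRDC3 lower, and the calls over all genes went from 2159 higher and 3103 lower to 1029 and 4937. Across genes the log2 fold change rose with exonic GC content here too (Spearman's rho 0.36), and the 2 members with GC-richer exons, ARRDC1 and ARRDC2, were the higher ones. The GC offset gave 0.48 for ARRDC1, -0.19 for ARRDC3 and -0.43 for TXNIP. The part of GC content in the split was not tested beyond that offset.

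GO-Rg3-DOX and GO-Rg3 share neither group with the comparison assumed to have selected the set, so adjusted p is given for members. The set was chosen with earlier results of these data known. If those included the present comparison, the p-values are a description only. ARRDC2 was 3.23-fold higher with doxorubicin on the carrier (log2 fold change 1.69, SE 0.32, adjusted p = 0.00025 in edgeR over all genes), and higher in each GO-Rg3-DOX sample than in any GO-Rg3 sample. It was the only member past both limits of the call. ARRDC1 was 1.86-fold higher (log2 fold change 0.89, SE 0.17, edgeR adjusted p = 0.00029). TXNIP was lower by a log2 fold change of -0.78 (SE 0.13, edgeR adjusted p = 7.7e-05), and ARRDC3 by -0.78 (SE 0.16, edgeR adjusted p = 0.00054). For these 3 the change passed the limit on adjusted p and stayed under the limit on fold. The background was large, since 57.1% of all genes had an adjusted p below 0.01, 12.6% were called higher, 18.1% were called lower and 70.3% did not overlap, as 4 of the 4 members did not. The dose was 100 µg/mL with doxorubicin and 400 µg/mL without, so drug and dose cannot be told apart. Without GO-Rg3 replicate 1, 2 members were called. The log2 fold change again rose with exonic GC content across genes (Spearman's rho 0.32). With the GC offset the ARRDC3 value was -0.31 (edgeR adjusted p = 0.016) and no longer passed, while TXNIP kept -0.46 (edgeR adjusted p = 0.00023). Over all alternatives the ARRDC1 value ranged from 0.45 to 1.09. Scaling by library totals alone moved the median of all genes to -0.45 and the calls over all genes from 2146 higher and 3097 lower to 889 and 4983, and ARRDC1 then had a log2 fold change of 0.46 (edgeR adjusted p = 0.038).

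The levels of TXNIP and ARRDC3 followed each other over the 12 samples, with a Pearson correlation of log2 CPM of 0.98. The correlation was 0.62 for TXNIP and ARRDC2 and 0.53 for ARRDC2 and ARRDC3. ARRDC1 had 0.42 with ARRDC2, -0.46 with ARRDC3 and -0.37 with TXNIP. The samples fall into treatment groups and share library composition within them, so these values describe the group pattern and carry no p. Among 13242 other genes with enough counts, those most like TXNIP were MXI1 and ESPNP, with a correlation of 0.986 each. TSPYL1 (0.986) was among the nearest to ARRDC3, and the nearest to ARRDC2 were the creatine transporter SLC6A8 (0.983) and PDCD4 (0.974). SH3GLB2 (0.993) and ABCB8 (0.992) were nearest to ARRDC1. SLC6A8 had the ARRDC2 order of groups at a far higher level, with a mean of 51.0 CPM untreated, 309.6 CPM with GO, 67.5 CPM with GO-Rg3 and 127.05 CPM with GO-Rg3-DOX.

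**Figure D4:**
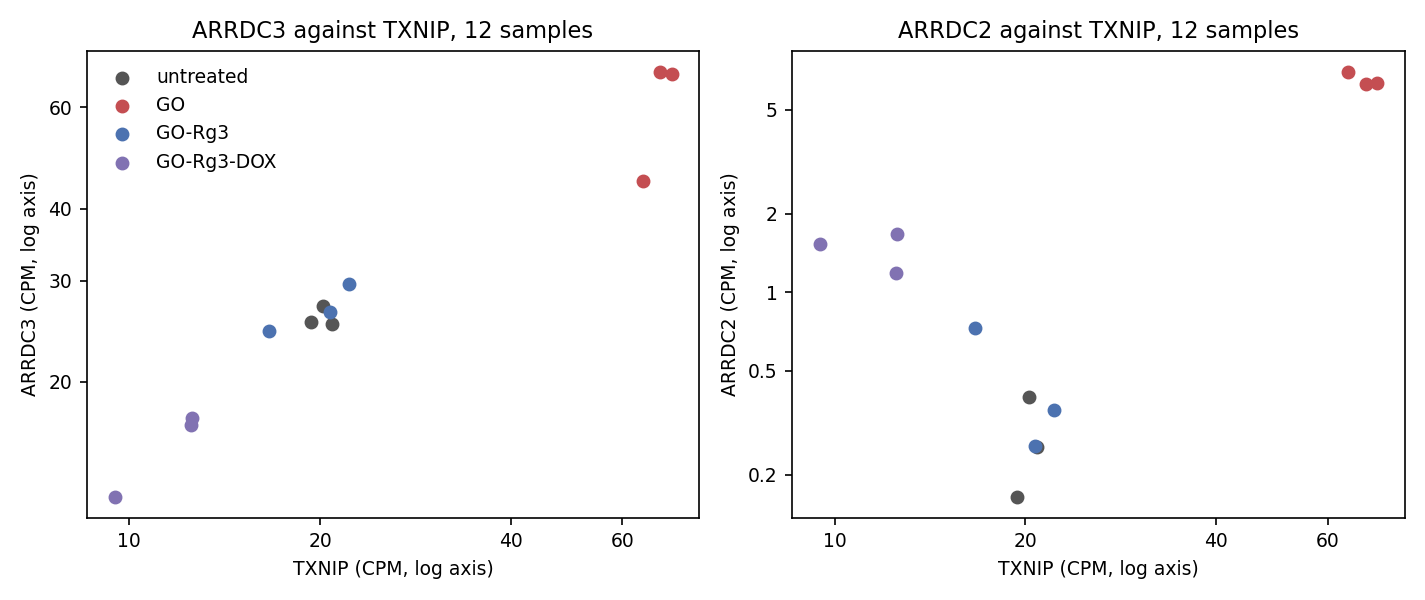
ARRDC3 (left) and ARRDC2 (right) against TXNIP in the 12 samples, CPM on log axes, coloured by group. ARRDC3 follows TXNIP through all 4 groups, whereas ARRDC2 is above its untreated level after GO-Rg3-DOX although TXNIP is below its own.

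In the lists that follow, called genes are those past both limits, and genes with an adjusted p under 0.01 and a smaller fold change are not counted. The lists were chosen with earlier results of these data known, so their counts, medians and p-values are a description as well. Over all genes, 3.84% were called higher and 2.62% lower after GO, and 12.6% and 18.1% between GO-Rg3 and GO-Rg3-DOX. Of the transcription factors that control TXNIP and ARRDC4, none was called in GO-treated cells, 0 of 3 in either direction. MLX, the shared partner, averaged 33.8 ± 1.19 CPM after GO and 60.9 ± 2.59 CPM in untreated cells (SD, n = 3), a log2 fold change of -0.85 (SE 0.09, edgeR adjusted p = 6.3e-06) that stayed under the fold limit. MLXIP, which encodes MondoA, averaged 90.0 ± 9.02 and 54.2 ± 3.59 CPM, with 0.73 (SE 0.11, edgeR adjusted p = 0.00018). MLXIPL, which encodes ChREBP, averaged 0.475 ± 0.106 and 0.608 ± 0.181 CPM. After GO-Rg3-DOX MLXIPL averaged 1.72 ± 0.377 CPM against 0.434 ± 0.0710 CPM after GO-Rg3, and rose by a log2 fold change of 1.97 (SE 0.28, edgeR adjusted p = 1.7e-05).

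Of 12 tested MondoA and ChREBP target genes, 1 was called higher and 0 lower after GO, with a median log2 fold change of 0.14 over the list against 0.01 over all genes. The called gene was HK2, a hexokinase, at 201.6 ± 8.18 CPM against 75.9 ± 0.605 CPM (log2 fold change 1.41, SE 0.08, edgeR adjusted p = 1.9e-08). Just under the fold limit, ELOVL6 was lower, with a log2 fold change of -0.999 (edgeR adjusted p = 2.9e-06). ACACA was also lower (-0.49, edgeR adjusted p = 0.0025), whereas LDHA was higher (0.46, edgeR adjusted p = 0.0017). Between GO-Rg3-DOX and GO-Rg3, 3 of the 12 were called higher and 0 lower. Among them were the glycerol-3-phosphate dehydrogenase gene GPD1 (2.26, SE 0.26, edgeR adjusted p = 1.6e-06) and PKLR of liver pyruvate kinase (1.71, SE 0.27, edgeR adjusted p = 4.4e-05). In the same comparison TXNIP was lower. HK2 was lower too, under the fold limit, with means of 56.9 ± 1.11 and 95.1 ± 0.943 CPM and a log2 fold change of -0.74 (edgeR adjusted p = 9.1e-07). The list median was 0.45 there, against -0.00 over all genes. With scaling by library totals 2 were called higher and 1 lower, and the list median was 0.01 beside an all-gene median of -0.45.

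The cargo list joined glucose transporters and other reported alpha-arrestin cargo with hexokinases, which are enzymes. Of its 8 tested genes, 3 were called higher after GO and 0 lower. SLC2A1, whose protein TXNIP removes from the surface, averaged 210.0 ± 8.28 CPM after GO and 61.1 ± 3.75 CPM in untreated cells, a log2 fold change of 1.78 (SE 0.12, edgeR adjusted p = 1.1e-07). INSR, the insulin receptor, rose by 1.45 (SE 0.15, edgeR adjusted p = 7.4e-06), and the hexokinase HK2, already counted above, was the remaining one. SLC2A2, the liver glucose transporter, was lower by a log2 fold change of -0.89 (edgeR adjusted p = 0.0013), under the fold limit. The same 3 genes fell between GO and GO-Rg3, SLC2A1 by 1.58 on the log2 scale (edgeR adjusted p = 5.4e-07). Between GO-Rg3 and GO-Rg3-DOX 1 of the 8 was called, ITGB4, which rose by 1.86 (SE 0.21, edgeR adjusted p = 1.4e-06) from 1.04 ± 0.336 to 3.82 ± 0.368 CPM.

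Of 10 FOXO target genes, 2 were called higher after GO and 0 lower, with a list median of 0.60. They were INSR and PIK3IP1, an inhibitor of PI3-kinase, which averaged 9.23 ± 1.12 CPM against 1.99 ± 0.0788 CPM (log2 fold change 2.21, SE 0.17, edgeR adjusted p = 5.0e-07). Between GO and GO-Rg3 these 2 fell, PIK3IP1 by 2.07. PIK3IP1 then rose by 1.14 (edgeR adjusted p = 4.1e-05) and SESN1 fell by 1.26 (edgeR adjusted p = 1.1e-05) between GO-Rg3 and GO-Rg3-DOX. Of 7 glucocorticoid-responsive genes, 0 were called higher and 1 lower after GO, the kinase gene SGK1, from 174.8 ± 0.453 to 78.4 ± 10.1 CPM (log2 fold change -1.16, edgeR adjusted p = 1.8e-05). Between GO-Rg3 and GO-Rg3-DOX 2 of the 7 were called lower, SGK1 (-1.42, edgeR adjusted p = 2.7e-07) and ZBTB16 (-1.25, edgeR adjusted p = 0.0014), and 0 higher. KLF9, a transcription factor of the list, was higher in both comparisons under the fold limit, by 0.91 after GO (edgeR adjusted p = 0.00018) and by 0.95 with GO-Rg3-DOX (edgeR adjusted p = 2.7e-05). DUSP1 went the other way between GO-Rg3 and GO-Rg3-DOX, also under that limit (-0.69, edgeR adjusted p = 0.00048).

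The thioredoxin system, the partner of TXNIP, had 0 of 16 genes called higher and 1 lower after GO, with a list median of -0.27. The one called lower was PRDX3, the mitochondrial peroxiredoxin, from 422.3 ± 3.94 to 163.5 ± 22.6 CPM (log2 fold change -1.37, SE 0.17, edgeR adjusted p = 3.2e-05). TXN, which encodes the thioredoxin that TXNIP binds, averaged 116.4 ± 36.04 CPM with GO, 117.3 ± 25.6 with GO-Rg3, 215.1 ± 6.23 untreated and 212.9 ± 29.9 with GO-Rg3-DOX (SD, n = 3). It was lower after GO by a log2 fold change of -0.89 (edgeR adjusted p = 0.0017) and did not reach the fold limit. TXNRD1, its reductase, averaged 228.4 ± 54.9 CPM after GO against 359.8 ± 7.47 CPM in untreated cells. Between GO-Rg3 and GO-Rg3-DOX 5 of the 16 were called higher and 0 lower, with a list median of 0.86. PRDX5, PRDX2, TXNRD2, TXN2 and MSRA were the 5. PRDX5 rose by 1.24 (SE 0.15, edgeR adjusted p = 2.6e-06) and TXN2, the mitochondrial thioredoxin, by 1.06 (SE 0.13, edgeR adjusted p = 3.1e-06). With scaling by library totals 0 of the 16 were called and the list median was 0.40, beside an all-gene median of -0.45.

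The NEDD4-family ligases that alpha-arrestins recruit had 0 of 9 called in either direction after GO. Between GO-Rg3 and GO-Rg3-DOX 0 of the 9 were called higher and 3 lower, where 18.1% of all genes were called lower, and the list median was -0.76. ITCH fell by 1.09 (SE 0.14, edgeR adjusted p = 5.8e-06), from 137.8 ± 14.5 to 64.8 ± 9.11 CPM, HECW2 by 1.05 (SE 0.20, edgeR adjusted p = 0.00031) and SMURF2 by 1.03 (SE 0.16, edgeR adjusted p = 4.8e-05). With the GC offset 0 of the 9 were called and the list median was -0.63, and with library totals 7 were called lower. The arrestin-fold relatives outside the set, which include the beta-arrestins, had 6 of 8 genes tested and 0 called in any of the 5 comparisons.

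No gene of the 8 lists was called between GO-Rg3 and untreated cells. Between GO-Rg3 and GO the calls outside the cargo and FOXO lists were HK2 again among the MondoA and ChREBP targets, which fell, and SGK1 among the glucocorticoid-responsive genes, which rose by 1.24 (edgeR adjusted p = 2.2e-05). Against untreated cells, where 12.6% of all genes were called higher and 18.2% lower, GO-Rg3-DOX had 4 of 12 MondoA and ChREBP targets higher and 0 lower, 3 of 16 thioredoxin system genes higher and 0 lower, and 0 of 9 NEDD4-family ligases higher and 3 lower. In that comparison MLXIPL rose and MLX fell by 1.007 (edgeR adjusted p = 9.4e-08). The cargo list had 1 higher and 0 lower, the FOXO list 1 higher and 1 lower and the glucocorticoid list 1 higher and 2 lower. The members' own median log2 fold change was -1.48 between GO-Rg3 and GO, 0.09 between GO-Rg3 and untreated cells, 0.15 between GO-Rg3-DOX and untreated cells and 0.06 between GO-Rg3-DOX and GO-Rg3, beside all-gene medians of -0.02, -0.00, -0.06 and -0.00. The list counts of GO-Rg3-DOX against untreated cells share the untreated samples with the GO comparison.

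**Figure D5:**
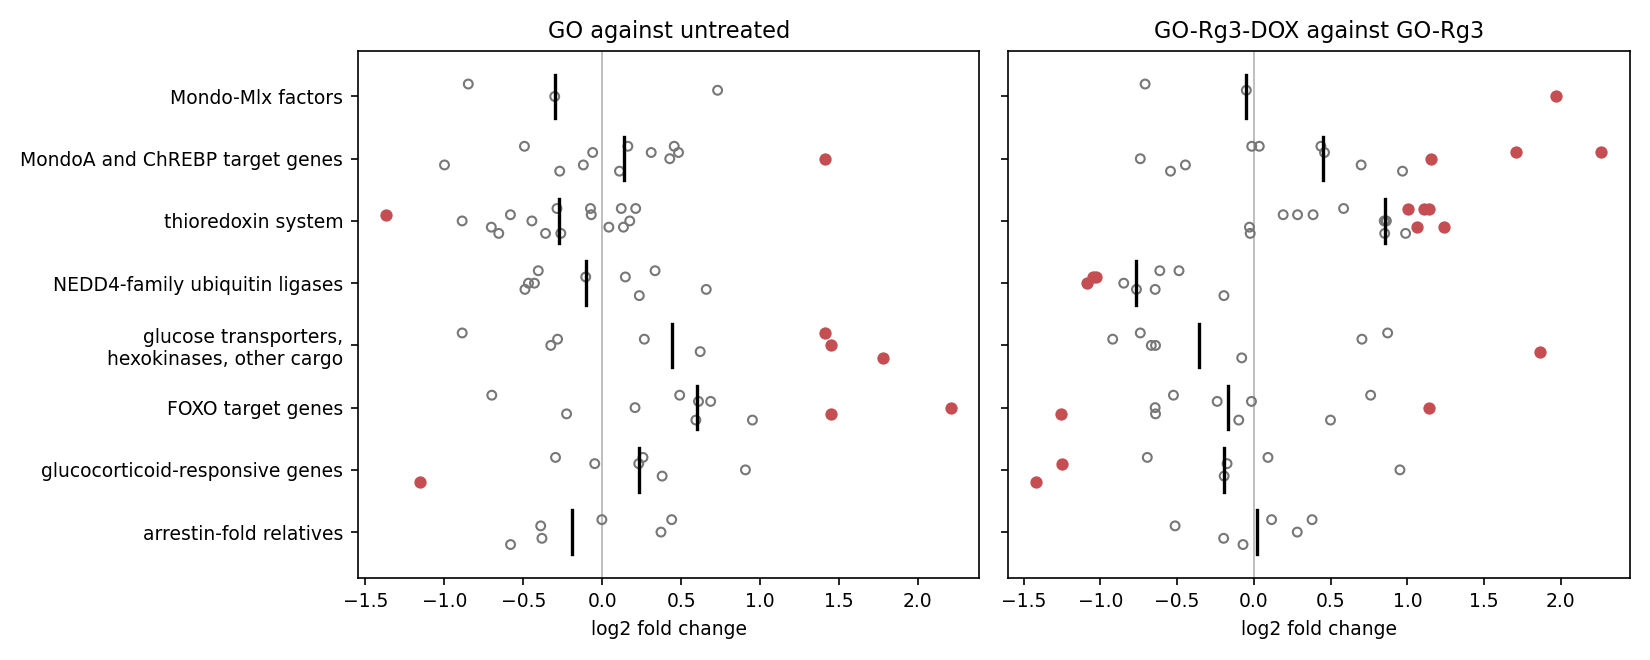
Log2 fold changes of the tested genes in 8 lists around the alpha-arrestins, after GO (left) and between GO-Rg3 and GO-Rg3-DOX (right). Filled points are genes past both limits of the call, open points the others, and black lines list medians, with the thioredoxin list at -0.27 and 0.86 and the NEDD4-family list at -0.10 and -0.76.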

How the data were processed

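The authors prepared stranded mRNA libraries, mapped reads to GRCh37 with the NGI-RNAseq pipeline and counted them per gene with featureCounts. Their deposited values are raw counts per gene without normalization, whole numbers for 63677 genes in 12 samples. The annotation release and the strand setting are not given in the sources used here. The members and gene lists were chosen with earlier results of these data known.

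A gene entered the test when 3 or more samples had 10 or more counts each (17092 genes). Counts were scaled by TMM and fitted in one model over all 12 samples without a replicate block by the quasi-likelihood test of edgeR 4.0.16 (R 4.3.3), with Benjamini-Hochberg adjustment over all genes per comparison. The study itself used DESeq2. The fit was tested on simulated data. Levels are TMM-scaled CPM. SE is the absolute log2 fold change divided by the square root of F. Totals of 27802871 to 38877420 counts per sample set the precision. Exonic lengths, GC content and positions came from GENCODE lifted to GRCh37, and promoter sequences from RefSeq. Named were all members, the 2 genes most correlated with each, ARRDC5, the 3 Mondo-Mlx factors, TXN, TXNRD1 and, per list and comparison, up to 2 called genes a direction with the largest changes among those whose CPM did not overlap and averaged at least 1. Some genes under this rule are not reported here. PKLR, TXN2, MSRA, SMURF2, SLC2A2, ELOVL6, ACACA, LDHA and DUSP1 were named beyond that rule, after their values were seen. So were HK2 between GO-Rg3-DOX and GO-Rg3 and KLF9 in the comparisons where it was not called. Alternatives were RLE scaling, library totals, mitochondrial genes left out, other filters, DESeq2 1.42.0, a replicate block, GC and length offsets (loess, span 0.5), fits to the 6 samples of a comparison, omission of each sample, a prior count of 2 and adjusted p limits of 0.05 and 1e-04.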

Additional observations from a re-analysis of the deposited data

How the results depend on the processing

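Member fold changes kept their direction in every comparison and alternative where they were called. The GC offset turned the uncalled ARRDC1 values to -0.07 (GO against untreated) and 0.10 (GO-Rg3 against GO), the near-zero differences of GO-Rg3 against untreated also changed sign in some settings (TXNIP -0.11 to 0.09, ARRDC3 -0.02 to 0.12, ARRDC1 -0.06 to 0.34), and ARRDC2 has no value with at least 10 counts in every sample, which removes it. Members called in GO-Rg3-DOX against untreated numbered 2, 3 with library totals, and 1 with no filter, with at least 10 counts in every sample, with the GC offset, or with the GC offset and replicate block, and 1 to 2 when each sample was left out. In GO-Rg3-DOX against GO-Rg3 the number was 1, but 0 at an adjusted p below 1e-04, 3 with library totals, 0 with at least 10 counts in every sample, and 1 to 2 with samples left out. Over all genes, GO against untreated had 1105 calls and 485 at 1e-04, and GO-Rg3 against GO had 473, 141 at 1e-04 and 280 with only the 6 samples compared. GO-Rg3 against untreated had 10 calls, against 49 at an adjusted p below 0.05, 1 at 1e-04, 18 with library totals, 63 with no filter, 24 with the replicate block, 27 with the GC offset, 33 with the GC offset and replicate block, 20 with only the 6 samples compared, 37 in DESeq2, and 1 to 10 with samples left out. The cause of these shifts was not tested. Library totals moved the all-gene median to -0.47 in GO-Rg3-DOX against untreated, -0.11 in GO against untreated and 0.12 in GO-Rg3 against GO. Same-numbered samples deviated together with a mean correlation of 0.09 (range -0.02 to 0.25, 18 pairs), against -0.05 (range -0.26 to 0.21, 36 pairs) for the others. Deviations were taken from the group means, which ties these mean correlations together, so the latter is not an independent baseline. The labels do not say whether samples of one number were handled together. The main fit did not pair them, and the block changed no member's call. ARRDC2, with 7 to 27 counts in untreated and GO-Rg3 samples, is where depth limits the values.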
